A study of Homo sapiens with 4 samples.

Results

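AVPI1, NAV3, SPIRE1, ENTPD7 and ITPRIP are 5 of the 23459 genes listed in RNA-Seq libraries of hTERT RPE-1 cells exposed to merbarone. They were chosen by their normalized counts in these same libraries, as large rises from 4 h to 8 h that both replicates share, and they were found in the count files by their NCBI Gene identifiers. The choice had no numeric cut-off. The rise itself is therefore a description and carries no test, while relatives, partners and chromosomal neighbours of these genes were not used in the choice and were tested. The lists of relatives and partners were still drawn up with earlier results of these data known, so their tests are not independent of the data.

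hTERT RPE-1 is a wild type, telomerase-immortalized human line derived from retinal pigment epithelium. All 4 libraries came from cells starved of serum, which arrests them in G0/G1, and then given 200 μM merbarone, a catalytic inhibitor of TOP2, with 2 libraries after 4 h and 2 after 8 h. Untreated cells were not analysed here, so the length of drug exposure and the further time in low serum cannot be told apart. The model is a single cell line in culture, and the replicates are described as biological. The p-values rest on the spread between 2 libraries per time, which the fits pool in part over genes, and they measure no other spread.

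The 5 proteins have different described roles. AVPI1 was described as a transcript induced by vasopressin in kidney cells and has been linked to ERK signalling. NAV3 is a neuron navigator, a large protein that associates with the growing ends of microtubules. SPIRE1 nucleates actin filaments together with formins of the FMN group and works on vesicles that carry RAB11 and class V myosins. ENTPD7 is a membrane enzyme of intracellular compartments that hydrolyses nucleoside triphosphates and diphosphates. ITPRIP binds the inositol trisphosphate receptor, the calcium channel of the endoplasmic reticulum, and lowers its calcium release.

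The promoters of the 3 members on chromosome 10 are shown because their RefSeq start is the outer end of the gene, so that the bases before it belong to none of its own transcripts. A protein-coding gene without a symbol, annotated on the opposite strand, spans the start of ENTPD7. Each run holds the 250 bases before the start, 5′ to 3′ on the strand of the gene, from RefSeq on GRCh38.p14. Capitals mark TGACGTCA, the full cyclic AMP response element (CRE), and CCAAT read on the opposite strand as ATTGG.
AVPI1 (minus strand, chr10:97687242-97687491): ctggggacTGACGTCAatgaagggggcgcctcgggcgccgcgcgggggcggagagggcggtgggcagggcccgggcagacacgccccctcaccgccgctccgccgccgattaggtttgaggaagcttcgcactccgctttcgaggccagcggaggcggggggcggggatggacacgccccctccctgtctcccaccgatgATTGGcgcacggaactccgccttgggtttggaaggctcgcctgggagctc
ENTPD7 (plus strand, chr10:99659259-99659508): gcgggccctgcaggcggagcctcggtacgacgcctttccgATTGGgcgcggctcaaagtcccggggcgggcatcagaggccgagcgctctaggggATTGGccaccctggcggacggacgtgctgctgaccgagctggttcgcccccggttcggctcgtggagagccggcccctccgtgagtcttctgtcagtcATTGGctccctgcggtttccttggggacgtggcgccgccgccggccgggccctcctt
ITPRIP (minus strand, chr10:104338466-104338715): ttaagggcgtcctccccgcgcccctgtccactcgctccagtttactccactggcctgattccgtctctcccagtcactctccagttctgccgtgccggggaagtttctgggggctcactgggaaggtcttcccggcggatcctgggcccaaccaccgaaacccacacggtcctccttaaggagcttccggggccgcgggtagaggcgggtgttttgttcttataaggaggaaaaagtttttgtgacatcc

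These promoters differ in their letters. AVPI1 carries the full CRE, 242 bases before its start, and 1 CCAAT box on the opposite strand 50 bases before it. ENTPD7 carries 3 CCAAT boxes on the opposite strand, and ITPRIP carries none of the capitalised motifs. The windows of SPIRE1 and NAV3 in the same source lie inside longer transcripts and are not printed.

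Each library held 8064450 to 10324697 reads on genes. The chi-square statistic of the counts per degree of freedom came to 2.67 for the pair at 4 h and 3.84 for the pair at 8 h, so replicates differed by more than read sampling, and it was at least 21.9 between times. Of 12 retinal pigment epithelium markers, 6 were retained. KRT8 and KRT18, MITF and OTX2 were present, with KRT18 lower after 8 h (log2 fold change −0.51, edgeR adjusted p = 3.72e-05), while RPE65 had at most 7 counts, BEST1 at most 6, RLBP1 at most 2 and TYR none in any library. Of 11 markers of leukocytes, endothelium, other epithelia, muscle and neurons, 1 was retained, CD68, a lysosomal protein, with 575 and 597 counts after 4 h and 654 and 579 after 8 h (log2 fold change 0.39, edgeR adjusted p = 0.00298, or 0.065 without 4 h replicate 1). The others had at most 8 counts in a library. The presence of other cells was not tested further.

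All 5 members passed the filter on low counts, counts divided by the library total and scaled (CPM) above 1 in at least 2 libraries, which 12559 genes passed. In each of them both 8 h libraries lay above both 4 h libraries, a separation that 34.8% of the genes tested showed in this direction. All 5 also had an adjusted p below 0.05 in edgeR's quasi-likelihood test and a log2 fold change above 1, as did 1.45% of the genes tested. Since the choice used this contrast, nothing is read from these shares. In bulk libraries, a change in RNA per cell and a change in the share of cells that express the gene cannot be told apart.

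AVPI1 (NCBI Gene 60370, chromosome 10, 99437181 to 99446998, minus strand, hg19) had normalized counts of 849 and 1033 after 4 h and 3712 and 4053 after 8 h. Normalized counts are reads scaled by TMM to the mean effective library size. The groups stood far apart, and on the log2 scale the larger gap between replicates was at 4 h. The mean went from 940.8 ± 130 to 3882 ± 241 (SD, n = 2 each), 4.13-fold, with a log2 fold change of 2.04 (standard error 0.09). The 4 differences between an 8 h and a 4 h library ran from 1.85 to 2.25 on the log2 scale. This was the largest rise of the 5, and it placed AVPI1 14th from the top of the genes tested.

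NAV3 (NCBI Gene 89795, chromosome 12, 77718421 to 78606790, plus strand) was the least counted member, with 204 and 186 reads after 4 h and 676 and 423 after 8 h. Its normalized counts were 183 and 169 after 4 h and 691 and 526 after 8 h. The 4 h libraries were close together, while replicate 1 at 8 h stood well above replicate 2. The mean went from 175.8 ± 10.2 to 608.5 ± 117 (SD, n = 2 each), 3.47-fold, with a log2 fold change of 1.80 (standard error 0.13). Its library differences had the widest range of the 5 genes, from 1.52 to 2.03.

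SPIRE1 (NCBI Gene 56907, chromosome 18, 12446511 to 12658106, minus strand) had normalized counts of 1141 and 1099.7 after 4 h and 2956 and 2759.6 after 8 h. Replicates were close at both times, and the groups did not approach each other. The mean went from 1120.1 ± 28.9 to 2858 ± 139 (SD, n = 2 each), 2.55-fold, with a log2 fold change of 1.35 (standard error 0.08). It was the most even member, with a within-time SD of 0.06 on the log2 scale, against a median of 0.09 over genes whose mean count reached 100. ENTPD7 was at 0.09, while ITPRIP, AVPI1 and NAV3 were above the median, at 0.14, 0.15 and 0.21.

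ENTPD7 (NCBI Gene 57089, chromosome 10, 101419266 to 101470998, plus strand) had normalized counts of 944 and 1004 after 4 h and 2754 and 2458 after 8 h. The mean went from 973.8 ± 42.1 to 2606 ± 210 (SD, n = 2 each), 2.68-fold, with a log2 fold change of 1.42 (standard error 0.08). The 8 h replicates were further apart than the 4 h replicates and still did not overlap with them.

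ITPRIP (NCBI Gene 85450, chromosome 10, 106069456 to 106098223, minus strand) was the most counted member, with normalized counts of 3752 and 4498 after 4 h and 10173 and 10846 after 8 h. The mean went from 4125 ± 528 to 10509 ± 476 (SD, n = 2 each), 2.55-fold, with a log2 fold change of 1.35 (standard error 0.08). The 4 h replicates differed by more than those at 8 h, and the lowest library difference was 1.18.

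**Figure D1:**
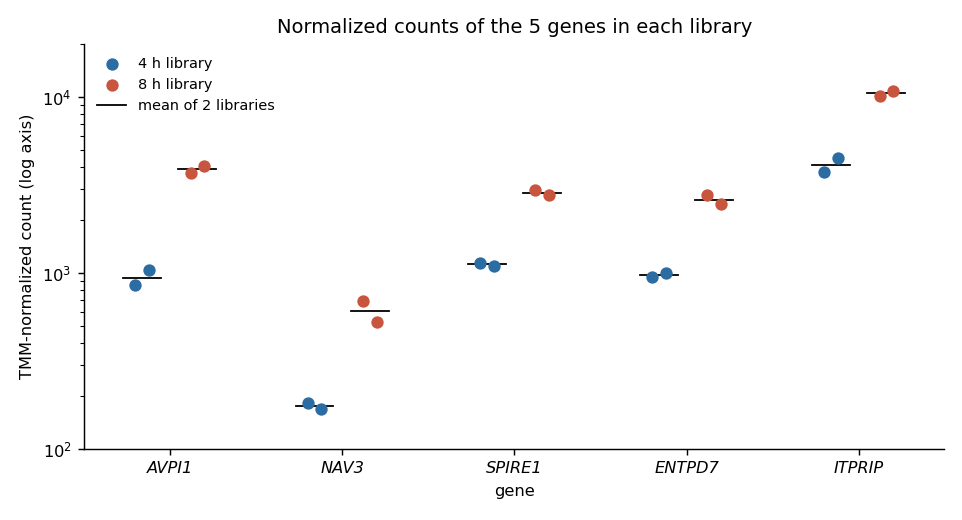
TMM-normalized counts (log axis) of the 5 genes, with a point for each library (blue 4 h, red 8 h) and a line at the mean of 2 libraries. In every gene both 8 h points lie above both 4 h points, and on this axis they come closest in ITPRIP, at 4498 against 10173, and stay furthest apart in AVPI1, at 1033 against 3712.

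The size of the rise divided the members into a steep and a moderate set only in part. The library differences of AVPI1 lay above those of SPIRE1, ENTPD7 and ITPRIP, and those of NAV3 lay above those of SPIRE1. In the other 6 of the 10 pairs of members the ranges overlapped. SPIRE1 and ITPRIP, for example, had the same rounded log2 fold change. With 2 libraries per time, an exact permutation test cannot give a two-sided p below 0.333, so no such test was made.

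**Figure D2:**
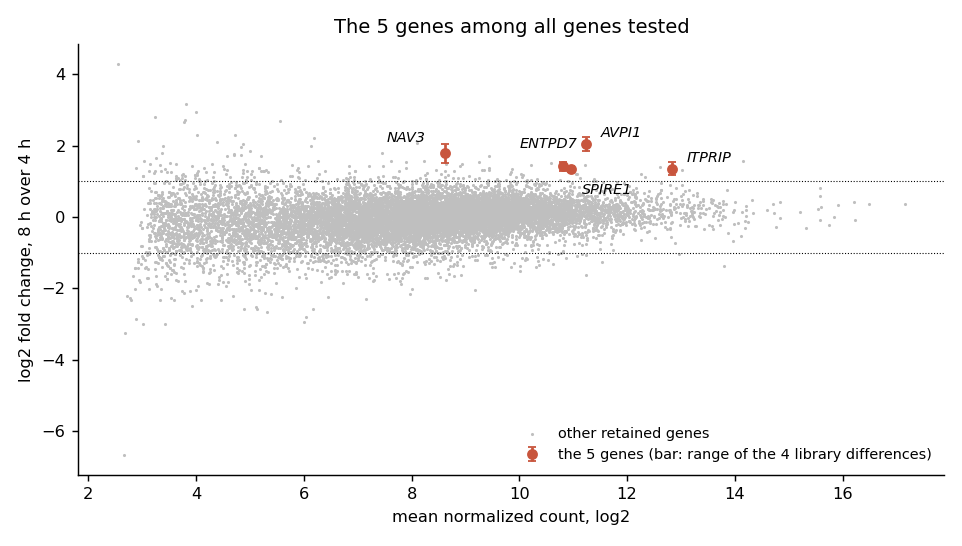
Log2 fold change of 8 h over 4 h against the mean normalized count (log2) for all genes tested, with the 5 genes in red and bars for the range of their 4 library differences. Dotted lines mark a log2 fold change of 1 in either direction, and the 5 genes lie above the upper line from 1.35 to 2.04.

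The order of expression levels was different when exon length was taken into account. Reads scaled by TMM depth and by the length of the merged exons (RPKM) put AVPI1 first, at 71.3 ± 9.84 at 4 h and 294.3 ± 18.3 at 8 h (SD, n = 2 each), since its exons cover only 1375 bases. ITPRIP followed with 58.9 ± 7.54 and 150.1 ± 6.79. At 4 h the libraries of these 2 genes nearly met, the lower of AVPI1 at 64.35 and the higher of ITPRIP at 64.26, and with the longest transcript as length they overlapped, ITPRIP then reaching 68.9. At 8 h they were apart. SPIRE1 was at 17.9 ± 0.46 and 45.8 ± 2.22, ENTPD7 at 11.7 ± 0.51 and 31.4 ± 2.53, and neighbours in this order did not overlap.

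NAV3 was by far the lowest per length, at 1.38 ± 0.08 at 4 h and 4.78 ± 0.92 at 8 h. Among the 12289 tested genes with an annotated length, its level per length was at percentile 18.7 at 4 h and 46.7 at 8 h. AVPI1 was at percentile 96.3 and then 99.4, and ITPRIP at 95.4 and then 98.4. Merged exons overstate the length of a gene with many isoforms, and with the longest transcript NAV3 was at 1.79 and 6.21.

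The members were also unlike in genomic size. NAV3 spans 888370 bases, more than 99.6% of the tested genes, and SPIRE1 spans 211596 bases, while AVPI1 spans 9818. Among the 966 tested genes that span over 200 kb, 2.90% were higher by both thresholds and 2.07% lower, with a median log2 fold change of −0.01. Among 4282 genes under 20 kb, the class of AVPI1, 1.54% were higher and 4.11% lower, with a median of 0.03. Between these, genes of 20 to 100 kb, the class of ENTPD7 and ITPRIP, had 66 of 5507 higher and 4.25% lower. These are descriptions, and the shares include the members.

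On chromosome 10, which holds 3 of the 5 members and 3.90% of the tested genes with a position, 6 of 479 tested genes were higher by both thresholds, or 1.25%, and 24 were lower, with a median of −0.05. The lower genes made up 5.01%, and over all genes tested the shares were 1.45% higher and 3.88% lower. AVPI1, ENTPD7 and ITPRIP make up 3 of the 6 higher genes. That follows from the choice of the members by this contrast, so nothing is read from it.

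The 5 nearest listed genes on either side of each member came to 50 genes, of which 34 were tested. Of these, 0 were called higher and 2 were called lower by both thresholds, while 9 were higher and 9 lower at an adjusted p below 0.05 in edgeR, with no fold threshold. Over all genes tested, 1.45% were higher and 3.88% lower by both thresholds, so a count of 0 among 34 is near the background, and by adjusted p alone 19.9% were higher and 18.9% lower. The median log2 fold change of the neighbours was 0.01, and their range was −1.53 to 0.62. At an unadjusted p below 0.05 in edgeR, 9 were higher and 11 lower. DESeq2 and Limma-Voom also called 0 neighbours higher.

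Next to AVPI1, PI4K2A, a phosphatidylinositol 4-kinase gene whose end lies 0.99 kb away, had normalized counts of 2374.5 and 2498.5 after 4 h and 2943 and 2854 after 8 h. Its log2 fold change was 0.25 (standard error 0.07, edgeR adjusted p = 0.0118), and the adjusted p was 0.135 with library size alone, 0.233 after correction for the trend with abundance (log2 fold change 0.12), 0.179 without 4 h replicate 1 and 0.0581 without 4 h replicate 2. On the other side MARVELD1, a membrane protein gene, went from 2998 and 3123 to 2356 and 2413 (log2 fold change −0.36, standard error 0.07, edgeR adjusted p = 0.000744). The third gene on the PI4K2A side, HOGA1, a mitochondrial aldolase gene, had only 23 and 17 reads after 4 h and 6 and 5 after 8 h (log2 fold change −1.53, standard error 0.49, edgeR adjusted p = 0.0185), while the adjusted p was 0.154 with DESeq2 and 0.0546 without 8 h replicate 1, and it failed the filter on low counts without either 4 h library.

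The nearest listed genes to NAV3 are far away. E2F7, an atypical E2F repressor gene 259 kb before it, had 955 and 1009.9 normalized counts after 4 h and 1545 and 1430.1 after 8 h (log2 fold change 0.60, standard error 0.08, edgeR adjusted p = 1.53e-05). SYT1, a synaptotagmin gene 651 kb behind it, had 479 and 472 after 4 h and 579 and 511 after 8 h (edgeR adjusted p = 0.134). E2F7 passed the test below the fold threshold. SYT1 did not, although its adjusted p was 0.0444 without 8 h replicate 2.

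PSMG2, a proteasome assembly gene whose annotated start overlaps that of SPIRE1 on the opposite strand, had 303 and 290.1 normalized counts after 4 h and 290.5 and 256 after 8 h (log2 fold change −0.12, edgeR adjusted p = 0.49). PRELID3A, on the other side of SPIRE1, had a log2 fold change of 0.01 (edgeR adjusted p = 0.974). Neither PSMG2 nor PRELID3A passed the test. CEP76 and CEP192, on the PSMG2 side, were named after their values were seen, and both were lower. CEP76, 3.7 kb away, had a log2 fold change of −0.78 (standard error 0.23, edgeR adjusted p = 0.0113), which went past the fold threshold without 8 h replicate 1. CEP192 had −0.79 (standard error 0.12, edgeR adjusted p = 3.08e-05). The other tested neighbours of SPIRE1, AFG3L2, TUBB6, PTPN2 and SEH1L, did not pass the test.

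ENTPD7 shares its 3′ region with CUTC, a copper homeostasis gene on the same strand, and COX15, a gene of haem A synthesis on the opposite strand. CUTC had 267 and 261 normalized counts after 4 h and 246 and 244 after 8 h (log2 fold change −0.11, edgeR adjusted p = 0.523). COX15 went from 605 and 569 to 489 and 481 (log2 fold change −0.28, standard error 0.10, edgeR adjusted p = 0.0324). The adjusted p of COX15 was 0.131 with DESeq2, 0.191 without 4 h replicate 1, 0.0802 without 4 h replicate 2 and 0.0643 without 8 h replicate 2. Whether the strand was used in counting is not given in the sources used here. SLC25A28, the mitochondrial iron carrier gene on the other side, was higher, with a log2 fold change of 0.52 (standard error 0.10, edgeR adjusted p = 0.000296).

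ITPRIP overlaps an antisense transcript, ITPRIP-AS1, that has no row of its own in the count files, so reads of the pair may have been counted together. Beside it, GSTO2 and CFAP58 were near the detection limit, with at most 38 reads in a library, and neither passed the test with all libraries and TMM. GSTO2 passed both thresholds as lower without 8 h replicate 2 (log2 fold change −1.16, edgeR adjusted p = 0.0465) and with library size alone (−1.01, edgeR adjusted p = 0.0463). The fifth gene on the GSTO2 side, SFR1, a homologous recombination gene, fell from 134 and 124 normalized counts to 53.2 and 52.2 (log2 fold change −1.29, standard error 0.20, edgeR adjusted p = 5.55e-05).

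**Figure D3:**
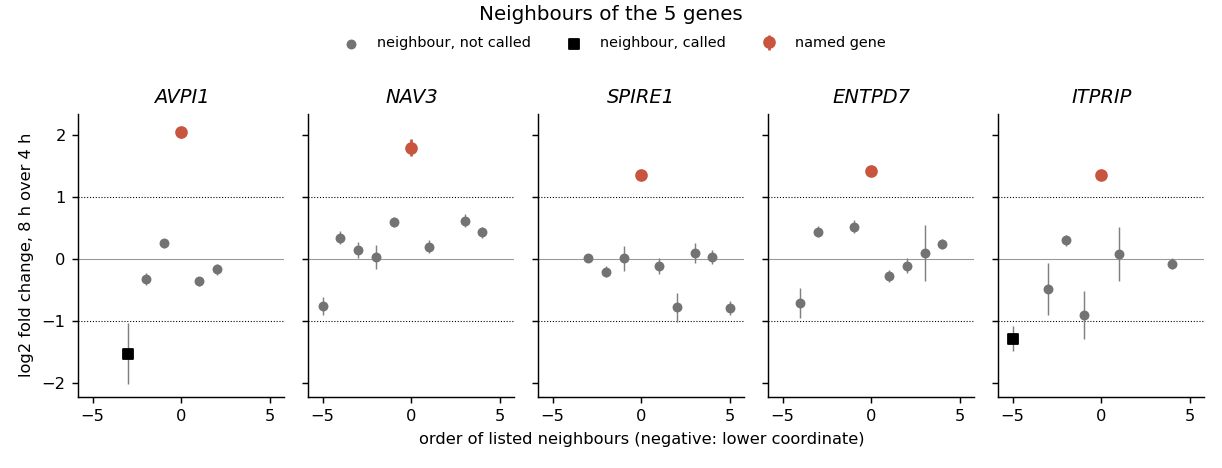
Log2 fold change (8 h over 4 h) of each of the 5 genes (red) and of the tested genes among its 5 nearest listed neighbours on either side, placed by order and not by distance, with bars for the standard error. Black squares are the 2 neighbours called lower, HOGA1 at −1.53 and SFR1 at −1.29, and no neighbour exceeds 0.62.

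No close relative examined, for NAV3, SPIRE1, ENTPD7 and ITPRIP, passed both thresholds, and the navigator genes divided. NAV1 had 1674 and 1694 normalized counts after 4 h and 871 and 958 after 8 h, a log2 fold change of −0.88 (standard error 0.08, edgeR adjusted p = 1.49e-07). NAV2 had 746 and 804 after 4 h and 1074 and 1179 after 8 h, a log2 fold change of 0.54 (standard error 0.09, edgeR adjusted p = 9.14e-05). In both genes the times did not overlap, with NAV1 lower and NAV2 higher at 8 h under every scaling tried, and neither reached the fold threshold.

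SPIRE2, the other SPIRE gene, had few reads, with 27.8 and 33.5 normalized counts after 4 h and 19.4 and 19.9 after 8 h (log2 fold change −0.64, standard error 0.33, edgeR adjusted p = 0.138). Of the ENTPD family, ENTPD1, ENTPD2, ENTPD3 and ENTPD8 had at most 6 reads in any library and were not tested. The closest counterpart of ENTPD7 in the cell, the Golgi and lysosomal enzyme ENTPD4, went down from 1072 and 1001 to 860.1 and 825 normalized counts (log2 fold change −0.30, standard error 0.09, edgeR adjusted p = 0.00984, or 0.112 without 4 h replicate 1). ENTPD5, an enzyme of the endoplasmic reticulum, also had a negative log2 fold change, −0.50 (edgeR adjusted p = 0.0308, between 0.0558 and 0.175 without single libraries, 0.143 with DESeq2 and 0.116 after the abundance correction), and ENTPD6 one of −0.05 (edgeR adjusted p = 0.696). ITPRIPL2 had 1082 and 1089.7 after 4 h and 1222 and 1351 after 8 h, a log2 fold change of 0.24 (edgeR adjusted p = 0.0274, 0.205 with library size alone, 0.184 after the abundance correction, 0.0831 with DESeq2, 0.174 without 4 h replicate 1, 0.138 without 4 h replicate 2 and 0.15 without 8 h replicate 2). ITPRIPL1 had at most 2 reads. No list of relatives was made for AVPI1, so none was examined.

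Partners of the members were given by lists that, like the members, were drawn up with results of these data known. Over all genes tested the median log2 fold change was −0.00, and 1.45% of genes were higher and 3.88% lower by both thresholds. By adjusted p alone these shares were 19.9% and 18.9%. Of 22 other genes of microtubule plus ends, the setting of NAV3, all were tested. By both thresholds 0 were higher and 1 was lower, also in DESeq2 and Limma-Voom, with 7 higher and 6 lower by adjusted p alone, 8 and 7 by unadjusted p, and a median of 0.06. With library size alone and without 8 h replicate 1, 4 genes were lower, KIF2C, CKAP2 and GTSE1 joining (named after their values were seen), and without 4 h replicate 1 there were 2, TACC3 and GTSE1. The gene that was lower in every setting was TACC3, a mitotic spindle protein, which fell from 902 and 1078 to 384 and 427 normalized counts (log2 fold change −1.29, standard error 0.11, edgeR adjusted p = 2.40e-08). MACF1, a crosslinker of actin and microtubules and the most counted of the list, had a log2 fold change of 0.20 (edgeR adjusted p = 0.0304, 0.3 with library size alone, 0.544 after the abundance correction (log2 fold change 0.06), 0.0595 with DESeq2, 0.243 without 4 h replicate 1, 0.137 without 4 h replicate 2 and 0.0637 without 8 h replicate 1).

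Nucleators of unbranched actin filaments, the group of SPIRE1, had a median below that of all genes. Of 21 genes, 17 were tested and 4 had no count in any library. By both thresholds 1 was higher and 1 lower, by adjusted p alone 3 were higher and 8 lower, and the median log2 fold change was −0.36. Over all genes the shares were 1.45% and 3.88% by both thresholds and 19.9% and 18.9% by adjusted p alone. The gene that rose was JMY, an actin nucleator with the same kind of actin-binding repeats as SPIRE1 and a cofactor of p53. It had 227 and 284 normalized counts after 4 h and 622 and 768 after 8 h, a log2 fold change of 1.44 (standard error 0.13, edgeR adjusted p = 5.90e-08). The gene that fell was FHOD1, a formin, from 341 and 414 to 174 and 194 (log2 fold change −1.04, standard error 0.14, edgeR adjusted p = 7.46e-06). Its log2 fold change was −0.99 after correction for the trend with abundance, −0.90 without 4 h replicate 2 and −0.96 without 8 h replicate 1, each short of the fold threshold. DIAPH3, named after its values were seen, was called lower with library size alone and without either of these libraries. INF2, the most counted nucleator gene, had a log2 fold change of −0.13 (edgeR adjusted p = 0.282). Its adjusted p was 0.00511 without 8 h replicate 2, 0.0461 with library size alone and 0.0499 after the abundance correction, and its log2 fold change was 0.03 without 8 h replicate 1.

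The formin partners of SPIRE1, picked out after their values were seen, did not pass the test. FMN2 had 405 and 413 normalized counts after 4 h and 353 and 424 after 8 h (edgeR adjusted p = 0.607), and FMN1 had 59.2 and 69.8 after 4 h and 45.0 and 44.7 after 8 h (edgeR adjusted p = 0.0912). Of 14 class V myosins and Rab GTPases of vesicle transport, 13 were tested and 0 were called in either direction by both thresholds in edgeR, with 4 higher and 2 lower by adjusted p alone and a median of 0.10. At an unadjusted p below 0.05 the counts were 4 and 4, and DESeq2 and Limma-Voom also called 0. Among all genes tested the shares were 1.45% and 3.88% by both thresholds and 19.9% and 18.9% by adjusted p alone, so 0 of 13 is near the background. RAB3A and RAB3D were named after their values were seen. RAB3A passed both thresholds as higher after the abundance correction and without 8 h replicate 1, and RAB3D as lower without 8 h replicate 2. RAB3B, a GTPase of secretory vesicles and the most counted, had a log2 fold change of 0.15 (edgeR adjusted p = 0.132).

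Of 22 further enzymes and receptors of nucleotides, 13 were tested. By both thresholds 0 were higher and 1 was lower, where 1.45% and 3.88% of all genes were. By adjusted p alone 0 were higher and 5 lower, where 19.9% and 18.9% of all genes were, and the median was −0.19. With library size alone and without 8 h replicate 1, 2 were lower, P2RX5 joining (named after its values were seen). ADORA1, the adenosine A1 receptor, fell from 142 and 147 to 51.1 and 48.5 normalized counts (log2 fold change −1.53, standard error 0.20, edgeR adjusted p = 7.31e-06). NT5E, the surface enzyme that makes adenosine and by far the most counted of the list, went from 7611 and 7053 to 6211 and 5978 (log2 fold change −0.27, standard error 0.07, edgeR adjusted p = 0.00545, or 0.108 without 4 h replicate 1). At an unadjusted p below 0.05, 0 genes of this list were higher and 5 lower, and DESeq2 and Limma-Voom called 0 higher.

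Of 29 genes of inositol trisphosphate and store calcium, 21 were tested, and 0 were called by both thresholds in edgeR, DESeq2 or Limma-Voom. By adjusted p alone 6 were higher and 4 lower, and at an unadjusted p below 0.05 the counts were 7 and 5, with a median of 0.04. The shares over all genes tested were 1.45% and 3.88% by both thresholds and 19.9% and 18.9% by adjusted p alone. A count of 0 by both thresholds in a list of this size is near them. ATP2A2, the calcium pump of the endoplasmic reticulum and the most counted, had a log2 fold change of 0.04 (edgeR adjusted p = 0.666). The receptors that ITPRIP is named for were picked out after their values were seen. ITPR1 had 186 and 194 normalized counts after 4 h and 312 and 343 after 8 h (log2 fold change 0.78, standard error 0.13, edgeR adjusted p = 9.42e-05). ITPR2 and ITPR3 had log2 fold changes of 0.09 and 0.17 (edgeR adjusted p = 0.666 and 0.0903). Of 9 genes with the Mab-21 fold that ITPRIP shares, 5 were tested, 2 were higher and 1 lower by adjusted p alone and by unadjusted p, and 0 passed both thresholds in the same 3 tools. The most counted of them, MIEF1, a mitochondrial fission factor, had a log2 fold change of 0.45 (edgeR adjusted p = 0.000584).

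The vasopressin system for which AVPI1 is named was nearly silent. AVP and the receptors AVPR1A and AVPR2 had no read in any library, and AVPR1B had 2 reads in a single library. A count of 0 does not show absence at this depth. Of 15 genes of vasopressin, oxytocin and water channels, 2 were tested, AQP11 and OXTR, and 0 passed both thresholds in edgeR, DESeq2 or Limma-Voom. Both genes were higher by adjusted p alone in edgeR, as by unadjusted p, with a median log2 fold change of 0.53. AQP11 had 30.5 and 28.1 normalized counts after 4 h and 40.9 and 58.4 after 8 h (log2 fold change 0.74, standard error 0.29, edgeR adjusted p = 0.0464). OXTR, the oxytocin receptor, had 2908 and 2536 normalized counts after 4 h and 3361 and 3413 after 8 h (log2 fold change 0.32, standard error 0.08, edgeR adjusted p = 0.00363, 0.0834 after correction for the abundance trend and 0.144 without 4 h replicate 2). Of 16 core genes of the ERK cascade, 15 were tested and 0 passed both thresholds in these tools. By adjusted p alone 3 were higher and 1 lower, and by unadjusted p 4 and 2, with a median of 0.07, and SHC1, the most counted, had a log2 fold change of 0.01 (edgeR adjusted p = 0.915). Among all genes tested 1.45% were higher and 3.88% lower by both thresholds, and 19.9% and 18.9% by adjusted p alone. Counts of 0 by both thresholds in lists this short are therefore near the background.

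**Figure D4:**
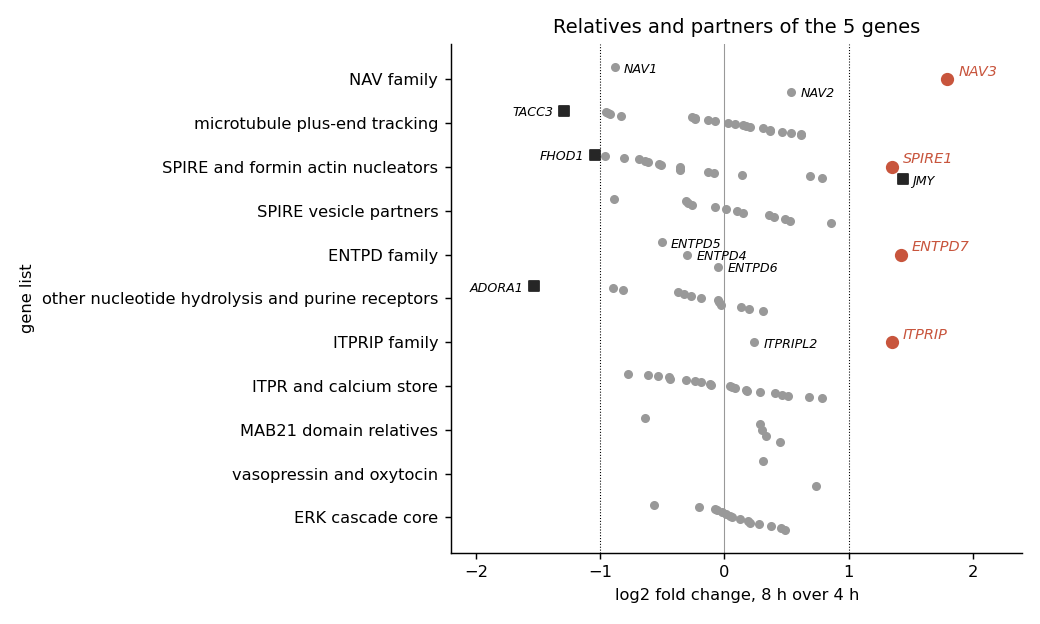
Log2 fold change (8 h over 4 h) of the tested genes of each list of relatives and partners (grey points, black squares if called by both thresholds), with the 4 members that have a family list in red. JMY at 1.44 is the only relative or partner past 1, while TACC3, FHOD1 and ADORA1 lie below −1.

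The genes whose pattern over the 4 libraries was most like each member were found among the 9379 genes whose mean normalized count reached 100. Likeness was the root mean square distance of log2 normalized counts after each gene was centred on its own mean, so it rests on 4 points that share libraries and depth. The members were chosen by these same counts, so genes near a member are bound to be other genes with a similar rise. The within-time SD on the log2 scale was 0.14 for ITPRIP and 0.15 for AVPI1. Whether the order of matches below such a spread would hold in other libraries was not tested. ITPRIP had the closest match, NR4A1, a nuclear receptor gene, at a distance of 0.01, with normalized counts of 328 and 395 after 4 h and 881 and 933 after 8 h. FOS, an AP-1 subunit, and SIK1, a salt-inducible kinase, followed at 0.04 and 0.07. In all 4 of these genes the higher library of each time was replicate 2.

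The gene most like AVPI1 was NR4A2, another nuclear receptor gene, at 0.08, with 104 and 109 normalized counts after 4 h and 419 and 471 after 8 h. The glucose transporter SLC2A3 and the cytokine IL6 were next, at 0.19 and 0.25. NAV3 was most like PTX3, a secreted pentraxin, at 0.11, which also had its higher 8 h value in replicate 1, at 30300 against 24530. SLC2A3 and the chaperone gene DNAJB9 followed at 0.14 and 0.18.

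SPIRE1 and ENTPD7 shared 2 of their 3 nearest genes, the heat shock gene HSPA1B and the transcriptional repressor TGIF1. For SPIRE1 the order was HSPA1B at 0.04, CREBRF, a regulator of CREB3, at 0.05, and TGIF1 at 0.06. For ENTPD7 it was TGIF1 at 0.04, HSPA1B at 0.05 and the growth factor NRG1 at 0.06. HSPA1B is nearly identical to another listed heat shock gene, and its reads are uncertain.

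**Figure D5:**
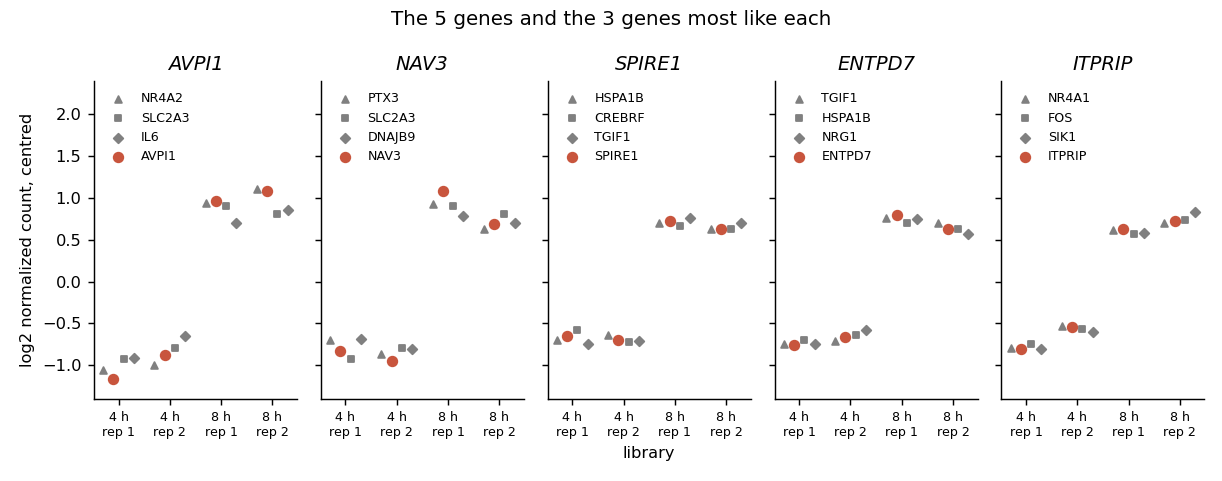
Log2 normalized counts of each of the 5 genes (red) and of the 3 genes most like it (grey), each centred on its mean over the 4 libraries. The matches are closest for ITPRIP, with NR4A1 at a distance of 0.01, and loosest for AVPI1, where the third gene, IL6, is at 0.25.

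Motifs were counted in windows from 250 bases before to 50 after the starts in the RefSeq table, on both strands. The full CRE was in 1.85% of all 35116 windows, and AVPI1 was the only member that held it. Of 392 other tested genes with this motif, 9 (2.30%) were higher by both thresholds and 15 (3.83%) lower, with a median log2 fold change of 0.02. Of all tested genes with a window 1.36% were higher, and of all genes tested 3.88% were lower. For the other motifs the higher share ran from 0.60% (CArG box) to 2.29% (the AP-1 motif TGANTCA, which no member holds). Whether any motif goes with a rise was not tested. The shorter TGACG, which the full element contains, was in 24.6% of windows, and among the members in AVPI1 and SPIRE1. TATAAA was in 11.5% of windows and in SPIRE1 alone. Both SPIRE1 matches lie in a window inside a longer transcript. A gene can have several windows, so shares of windows and counts of members are unlike measures. Counted by gene, 4158 tested genes other than the members held TGACG and 804 held TATAAA, where 10183 tested genes had a window.

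The remaining motifs were common or missing in the members. CCAAT was in 34.6% of windows and in 4 of the 5 members, all but ITPRIP, and GGGCGG in 44.95% of windows and in AVPI1 and ENTPD7. Counted by gene, 4420 tested genes other than the members held CCAAT and 7918 held GGGCGG, where 10183 tested genes had a window. The CCAAT matches of NAV3 and SPIRE1 lie in windows inside longer transcripts. The AP-1 motif TGANTCA (7.71% of windows), the E-box CACGTG (7.26%), the CArG box (1.29%) and the p53 motif (6.63%) were in no window of any member. A missing match says only that these letters are not in this window.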

How the data were processed

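RNA-Seq was performed on 4 libraries of merbarone-treated RPE-1 cells. The authors mapped single reads to hg19 with Bowtie 1.2.0, retained reads with a unique position and deposited raw counts per gene, unnormalized, with replicates kept separate. Annotation, counting tool and use of strand are not given in the sources used here. Unspliced mapping loses reads over splice junctions, and unique mapping loses reads of near-identical copies.

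Retained genes exceeded a CPM of 1 in 2 or more libraries. Counts were normalized by TMM and compared with the quasi-likelihood test of edgeR 4.0.16 (R 4.3.3) in a single fit of the 4 libraries, the model holding time alone. Calls needed a Benjamini-Hochberg adjusted p below 0.05 over all genes and an absolute log2 fold change above 1. Limma-Voom (limma 3.58.1), DESeq2 1.42.0, other scalings, no filter, a replicate block, an abundance correction and leaving out each library were alternatives, and the fits were tested on simulated data. Log2 values for spread and likeness used a pseudocount of 0.5.

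Symbols came from RefSeq (23308 of 23459 identifiers matched) and hg19 positions and lengths from GENCODE on GRCh37 (22207). Promoter windows were those of RefSeq. Named genes were the members, called list genes, retained paralogs, the most counted gene of each list, the nearest tested and called neighbours, and the 3 genes most like each member. The members and lists were chosen with earlier results of these data known. Depth was 8064450 to 10324697 counts per library, and edgeR's biological coefficient of variation was 6.52%.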

Additional observations from a re-analysis of the deposited data

How the results depend on the processing

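The log2 fold changes of the 5 members kept their direction and stayed above 1 under all 7 alternatives of test, scaling, filter, block and abundance correction and without each library. Members chosen in these same libraries for large rises shared by both replicates could hardly do otherwise. These values therefore describe how the size depends on processing and are no support for the rise. Library size alone, which moved the median of all genes to −0.108, gave 1.25 for SPIRE1 and 1.32 for ENTPD7, and the abundance correction gave 1.24, 1.31 and, for ITPRIP, 1.18. Without each library NAV3 ran from 1.58 to 1.98, the lowest without 8 h replicate 1, where the lone library is assumed to vary like the other time. With the longest transcript as length, RPKM was 1.79 and 6.21 for NAV3 and 20.7 and 52.8 for SPIRE1 at 4 h and 8 h, and 160.9 for ITPRIP at 8 h.

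By adjusted p alone, 2500 genes were higher and 2368 lower in place of 182 and 487. Library size alone gave 125 higher and 640 lower, which raised the lower share from 72.8% to 83.7%, and the abundance correction gave 262 and 338, a lower share of 56.3%. Of 148 tested relatives, partners and neighbours, 1 was higher and 5 lower. This became 38 and 39 by adjusted p alone, 11 lower with library size alone and 2 higher after the abundance correction, where RAB3A joined JMY. Without each library it ran from 1 to 2 higher and from 4 to 9 lower, the highest values without 8 h replicate 1. For the 33 named genes that are not members, 319 values kept their side of the threshold, 36 lost it and 6 gained it, and none of the called values changed sign.

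With the replicate number as a block, 193 genes were higher and 498 lower, and the block changed no call named here. Deviations of same-numbered libraries had a correlation of 0.04 over all retained genes and 0.12 over those whose mean count reached 100, and with only 2 pairs and no label that says what a number stands for, whether the numbers mark a shared batch was not settled. The low counts of HOGA1 and GSTO2 limit what the depth can show.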
